A study of Homo sapiens with 9 samples.

Results

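The contacts of the KITLG promoter were measured by Capture-C in HCT-116 MED14-dTAG cells, a human colon cancer cell line. Of the 575576 rows of the table for this promoter, 2083 were chosen because they are DpnII fragments on chromosome 12 within 500 kb of the 5′ end of KITLG (hg38); the tables of all 20 captured promoters hold 11339756 rows. Capture-C digests crosslinked chromatin with DpnII, ligates ends that lie close together and enriches the ligation products of one promoter, the viewpoint. All 9 libraries carry MED14-dTAG, a form of the Mediator subunit MED14 that is degraded once the dTAG ligand is added. The 3 groups of 3 libraries were cells given DMSO, the solvent (DMSO); cells given dTAG ligand for 2 h (dTAG); and cells given dTAG ligand for 2 h and I-BET, an inhibitor of BET bromodomain proteins, for 90 min (dTAG+I-BET). No group received I-BET alone, so that the effect of I-BET without the dTAG ligand was not measured. The tables hold ligation products averaged over many cells and both alleles, and no level of MED14 protein or of KITLG RNA, so that neither the depletion nor the identity of the cells could be checked from them.

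KITLG encodes stem cell factor, the ligand of the receptor tyrosine kinase KIT. It is made as a membrane protein and can be cut to a soluble form, and the exon that holds the cleavage site is skipped in some transcripts. The ligand is known for its part in the survival of blood progenitors, mast cells, germ cells, melanocytes and the pacemaker cells of the gut. Mediator is the large complex that links transcription factors at enhancers to RNA polymerase II at promoters, BET proteins bind acetylated histones at active chromatin, and cohesin extrudes DNA loops that are often halted at CTCF sites.

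KITLG (ENSG00000049130.16, minus strand) lies at chr12:88492793-88580851, a length of 88059 bp with 10 exons in the canonical transcript of GENCODE 44. Downstream of the promoter therefore means towards lower coordinates and through the gene, upstream towards higher coordinates. Exon 2 lies 35.0 kb from the 5′ end, exon 3 48.3 kb, exons 4 to 6 62.0 to 65.3 kb, exons 7 to 9 73.7 to 75.7 kb and exon 10 83.7 to 88.1 kb. The table holds no values for 839 bp around the promoter, the captured sequence itself. CEP290, which encodes a protein of the transition zone of cilia, and TMTC3, which encodes a mannosyltransferase of the endoplasmic reticulum, share a divergent promoter 438.8 and 438.6 kb downstream. No protein-coding gene starts within 500 kb upstream, where the annotation holds long noncoding RNA genes (among them ENSG00000278011, ENSG00000289174 and LINC02458), a small nuclear RNA pseudogene and a processed pseudogene.

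The results refer to 2 stretches of sequence, each of which is the first 250 bases of the DpnII fragment with the most signal in its 10-kb bin (hg38, plus strand, 5′ to 3′). Capitals mark the DpnII site GATC at which the fragment was cut. The bin 60 to 70 kb downstream had the lowest adjusted p, and the bin 400 to 410 kb upstream had the highest DMSO signal relative to other promoters.
chr12:88517633-88517882, 62.9 kb downstream, in the intron between exons 4 and 5: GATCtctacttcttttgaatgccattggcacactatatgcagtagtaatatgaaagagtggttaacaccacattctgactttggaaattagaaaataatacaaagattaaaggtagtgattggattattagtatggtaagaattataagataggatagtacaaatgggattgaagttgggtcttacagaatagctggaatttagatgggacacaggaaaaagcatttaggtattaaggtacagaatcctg
chr12:88983832-88984081, 403.4 kb upstream, between genes: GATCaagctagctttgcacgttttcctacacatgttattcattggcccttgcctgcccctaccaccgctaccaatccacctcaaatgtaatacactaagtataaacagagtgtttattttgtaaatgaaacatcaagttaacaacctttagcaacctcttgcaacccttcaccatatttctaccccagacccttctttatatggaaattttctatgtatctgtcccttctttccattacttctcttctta
Both stretches were poor in G and C, with 33.6% and 38.8%. Cut into 5 windows of 50 bases, both had all 5 windows at a single place in the 10 chromosomes searched. The core consensus of CTCF, searched as a motif of 12 letters on both strands, had 79 matching bins among the 1960 bins of all promoters (4.03%) and 0 among the 98 around KITLG. No mismatch was allowed and CTCF binding was not examined, so this does not show that the region lacks CTCF sites.

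Of the 2083 fragments (median length 333 bp), 1388 had signal in all 9 libraries and 16 had none in any. A library held 24475 to 47779 interactions of the KITLG promoter within chromosome 12 and 11740 to 26745 within 500 kb, and over all 20 promoters 484419 to 857998. Signal as deposited counts the interactions of each fragment, scaled by the authors to a near equal total on chromosome 12. It is given here per kb of sequence, in 98 bins of 10 kb from 10 to 500 kb on each side, and a bin held 14 to 1315 interactions in a library (median 112). Replicates correlated with a Pearson r of 0.914 to 0.980 across bins, which are not independent. Their recovered interactions gave a chi-square of 1.09 to 5.79 per degree of freedom, with 4.15 or more in each pair with DMSO replicate 3 or dTAG replicate 3. dTAG replicate 3 stood apart: 48.0% of its signal on chromosome 12 lay within 500 kb, against 53.7% to 60.3% in the others, and 38.2% of its interactions fell on other chromosomes, against 29.6% to 34.4%. DMSO replicate 3 had the next highest share on other chromosomes (34.4%). Over the bins of all promoters its deviations from the group mean had an r of 0.233 with those of dTAG replicate 3, the highest of 9 same-numbered pairs. Results are given with and without dTAG replicate 3 where it changes them. These fits kept DMSO replicate 3, so that a deviation shared by both would remain in 1 group, and no fit left out both. The share from 10 to 500 kb was 45.3%, 44.5% and 44.2% in DMSO and 47.9%, 47.3% and 39.6% in dTAG. In dTAG+I-BET it was 49.0%, 49.5% and 49.5%, above every DMSO library. Because totals on chromosome 12 are near equal, ratios of dTAG+I-BET to DMSO within 500 kb include this general difference.

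In DMSO the contacts of the promoter were uneven on its sides. Signal per kb at 10 to 20 kb was 2467 upstream and 2210 downstream, and it fell with distance on both. Upstream it reached 287.7 at 120 to 130 kb and then rose to a plateau. Its limits, set after seeing the data, were taken as 340 to 440 kb, and its 10 bins had DMSO means of 541 to 994; the 3 bins before it, from 310 to 340 kb, had 585, 625 and 716. Past 440 kb it dropped again, to 184 ± 7.05 (SD, n = 3) over 440 to 500 kb. Downstream it fell to 55.0 at 220 to 230 kb and rose to 304 to 357 in the 3 bins from 420 to 450 kb, where CEP290 and TMTC3 start.

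**Figure D1:**
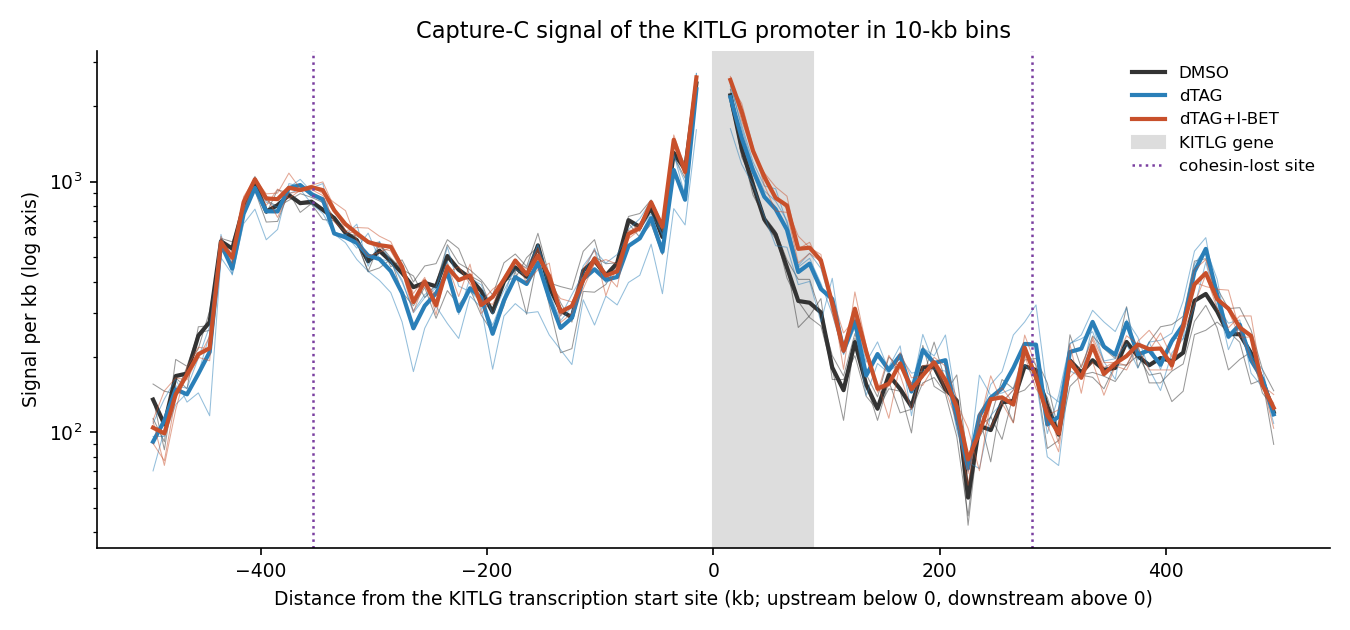
Capture-C signal per kb (log axis) in 10-kb bins against distance from the KITLG 5′ end in kb, with upstream below 0 and downstream above 0; thick lines are group means of 3 libraries, thin lines single libraries, the gray span the gene and dotted lines the sites of reduced cohesin. The upstream plateau at 340 to 440 kb lies at 541 to 994 in DMSO, and the means of dTAG and dTAG+I-BET lie above DMSO from 40 to 110 kb downstream.

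The plateau was the feature in which KITLG differed most from the other 19 promoters at the same distance and side, as a description of these viewpoints. The 5 bins with the highest DMSO signal over the median of the others all lay in it. The bin at 400 to 410 kb led with a ratio of 6.92, followed by 380 to 390 kb (5.93), 410 to 420 kb (5.82), 360 to 370 kb (5.20) and 370 to 380 kb (5.07). In each of these 5 bins KITLG was above all 19 others. On the downstream side the bin at 220 to 230 kb was lowest, with 0.277 of the median of the others, and the bin over the CEP290 and TMTC3 starts reached 3.17. The bin at 220 to 230 kb holds 10 fragments, against 19 in each neighboring bin, and 14 to 38 interactions in a library. Signal per kb was not corrected for the number of fragments.

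**Figure D2:**
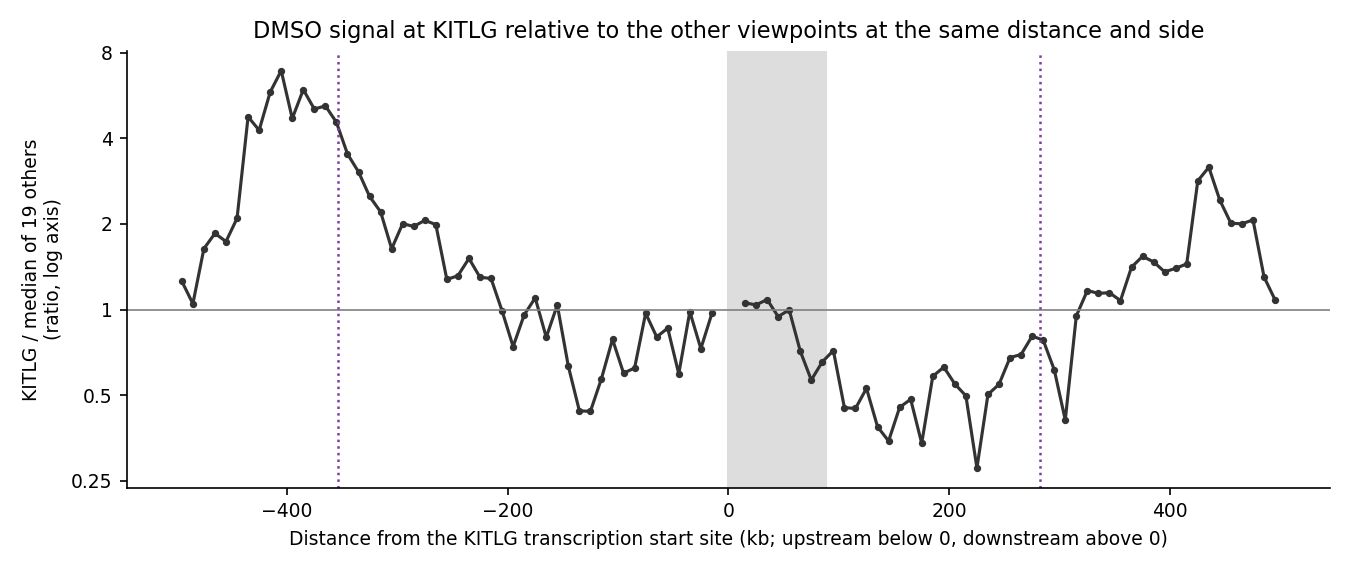
DMSO signal of the KITLG promoter divided by the median of the other 19 promoters (log axis) in 10-kb bins, against distance from the 5′ end in kb. The ratio is highest at 400 to 410 kb upstream (6.92) and lowest at 220 to 230 kb downstream (0.277).

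No bin of the plateau was called in any comparison. The bin at 400 to 410 kb had a signal per kb of 1012, 920 and 1050 in DMSO, 1038, 1021 and 777 in dTAG, and 1025, 1016 and 1029 in dTAG+I-BET. The groups overlapped, and dTAG replicate 3 was the lowest of the 9. Its strongest fragment, the second stretch printed above, had a signal of 598, 679 and 933 in DMSO, 671, 902 and 622 in dTAG, and 1047, 904 and 804 in dTAG+I-BET. The mean over the 10 bins of the plateau was 779 ± 21.9 in DMSO, 788 ± 41.4 in dTAG and 838 ± 34.9 in dTAG+I-BET (SD, n = 3 each). Over the wider stretch from 310 to 440 kb it was 747 ± 17.3, 744 ± 41.0 and 804 ± 31.9. By library the plateau mean was 792, 753 and 791 in DMSO and 807, 832 and 876 in dTAG+I-BET. These did not overlap, and the difference was not tested. From 310 to 440 kb all dTAG libraries were below all DMSO libraries at 320 to 330, 330 to 340 and 420 to 430 kb. They were above them at 360 to 370 kb. Over all promoters 10.1% of bins were lower and 6.28% higher in dTAG without overlap. All dTAG+I-BET libraries were above all DMSO libraries at 320 to 330, 340 to 350, 350 to 360 and 360 to 370 kb (15.1% over all promoters). Relative to DMSO, the lowest adjusted p from 310 to 440 kb was 0.468 in dTAG and 0.428 in dTAG+I-BET. Between the treated groups the lowest was 0.712 from 310 to 440 kb and 0.808 from 340 to 440 kb. At 400 to 410 kb the log2 ratio was -0.08 (95% interval -0.40 to 0.24) for dTAG and 0.04 (-0.28 to 0.36) for dTAG+I-BET. A change within these intervals was not excluded.

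The comparison of dTAG with DMSO asks how the contacts of the promoter differ once Mediator is depleted. Signal rose in 1 bin, just past the 3′ end of the gene, and no bin fell. A bin was called where limma gave an adjusted p under 0.05 over the bins of all 20 promoters, and by this rule 1.58% of those 1960 bins were called. Downstream, 42 of 49 bins had a fitted log2 ratio above 0 (median 0.27), while upstream 6 of 49 did (median -0.15); over all promoters the median was -0.07. The groups did not overlap in 10 downstream bins, all higher in dTAG, against a background of 6.28% of bins. Upstream they did not overlap in 9 bins, 1 higher and 8 lower; over all promoters 10.1% of bins were lower without overlap. When dTAG replicate 3 was left out, 42 of 49 downstream bins were above 0 (median 0.18), with 5 called, and 25 of 49 upstream bins (median 0.02), with 0 called.

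The called bin lies 100 to 110 kb downstream (chr12:88470851-88480850, 19 fragments), past the end of KITLG, in sequence with no annotated gene. Its signal per kb was 163, 180 and 203 in DMSO, 297, 314 and 412 in dTAG, and 339, 346 and 298 in dTAG+I-BET. Every treated library was above every DMSO library. The rise was 1.86-fold in dTAG (log2 ratio 0.90, SE 0.18, adjusted p = 0.00669) and 1.80-fold in dTAG+I-BET (0.85, SE 0.18, adjusted p = 0.00825). Without DMSO replicate 1 the call for dTAG was lost (adjusted p = 0.0562); over 17 alternatives the adjusted p ran from 0.000249 to 0.0562, and the bin was called in 16. For dTAG+I-BET the call was lost without DMSO replicate 1 (adjusted p = 0.0538) and without dTAG+I-BET replicate 1 (0.0541) or 2 (0.0576). The bin was also summed without its strongest fragment, a choice made after seeing the data. The other 18 fragments gave 161, 192 and 211 in DMSO, 292, 315 and 391 in dTAG, and 334, 349 and 303 in dTAG+I-BET, which again did not overlap, with log2 ratios of 0.82 and 0.81.

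Beyond this bin the largest fitted values in dTAG did not pass the test. At 140 to 150 kb downstream the signal per kb was 123, 112 and 139 in DMSO and 188, 230 and 198 in dTAG, which did not overlap (log2 ratio 0.72, SE 0.19, adjusted p = 0.0586). In dTAG+I-BET this bin stood at 145, 146 and 157, between the other groups. At 430 to 440 kb downstream, over the CEP290 and TMTC3 starts, the groups overlapped (log2 ratio 0.64, SE 0.20, adjusted p = 0.116). The 3 lowest fitted values lay upstream. They were -0.58 at 260 to 270 kb, -0.57 at 490 to 500 kb and -0.54 at 220 to 230 kb, with adjusted p-values of 0.171, 0.29 and 0.213.

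**Figure D3:**
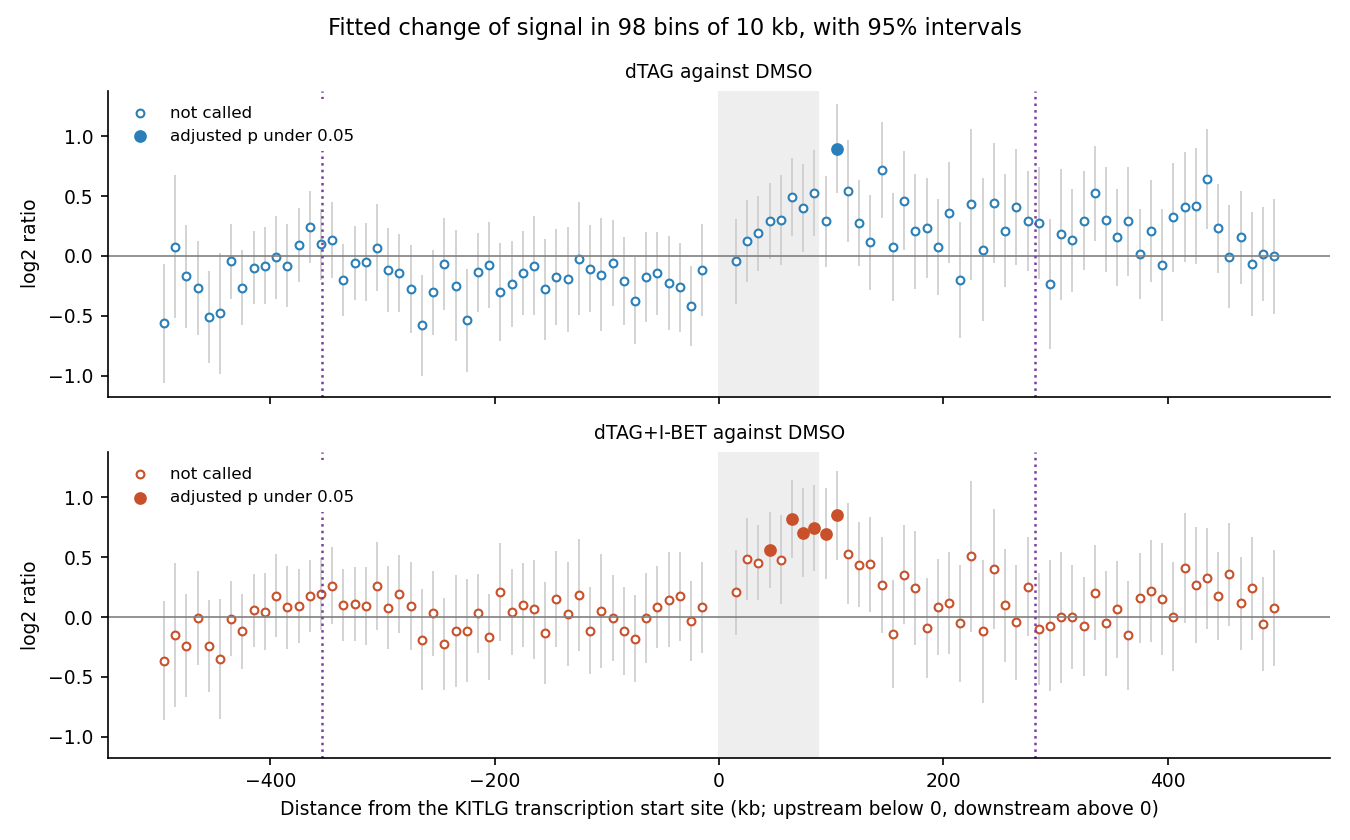
Fitted log2 ratio to DMSO of signal per kb in 98 bins against distance from the 5′ end in kb, for dTAG (upper panel) and dTAG+I-BET (lower panel), with 95% intervals as bars; filled points passed an adjusted p of 0.05. In dTAG 1 bin is filled, at 100 to 110 kb downstream, and in dTAG+I-BET 6 bins are filled between 40 and 110 kb downstream.

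The comparison of dTAG+I-BET with DMSO asks how contacts differ when BET proteins are inhibited as well. Signal rose in 6 bins, all downstream between 40 and 110 kb, which cover the second part of the gene from exon 3 to exon 10 and the sequence just past its end. No bin fell. Over all promoters 4.90% of bins were called in this comparison. The groups did not overlap in 14 downstream bins, all higher in dTAG+I-BET, and in 10 upstream bins, 6 higher and 4 lower; over all promoters 15.1% of bins were higher and 11.2% lower without overlap. Of the downstream bins 36 of 49 had a fitted log2 ratio above 0 (median 0.21), and of the upstream bins 29 of 49 (median 0.04), with a median of 0.01 over all promoters. The 3 lowest fitted values, -0.36 at 490 to 500 kb, -0.35 at 440 to 450 kb and -0.24 at 470 to 480 kb upstream, had adjusted p-values of 0.489, 0.519 and 0.635. Both comparisons use the same 3 DMSO libraries and are not independent of each other.

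The bin with the lowest adjusted p, 60 to 70 kb downstream, holds exons 4 to 6, which encode part of the extracellular portion of the ligand. Its signal per kb was 465, 413 and 488 in DMSO, 700, 683 and 548 in dTAG, and 754, 876 and 781 in dTAG+I-BET. The 3 groups did not overlap, in that order. The rise in dTAG+I-BET was 1.76-fold (log2 ratio 0.82, SE 0.16, 95% interval 0.49 to 1.14, adjusted p = 0.00319), and it was called in all 17 alternatives, with adjusted p-values of up to 0.0434. In dTAG the log2 ratio was 0.49 (SE 0.16, adjusted p = 0.116), and without dTAG replicate 3 it was 0.60 (adjusted p = 0.00717). The strongest fragment, the first stretch printed above, had a signal of 465, 439 and 400 in DMSO, 511, 533 and 311 in dTAG, and 739, 873 and 503 in dTAG+I-BET.

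The neighboring bins rose by similar amounts. At 70 to 80 kb, with exons 7 to 9, signal per kb was 262, 333 and 408 in DMSO and 474, 539 and 606 in dTAG+I-BET (log2 ratio 0.71, adjusted p = 0.0262). At 80 to 90 kb, with exon 10, it was 292, 287 and 408 against 517, 573 and 546 (0.75, adjusted p = 0.0167). At 90 to 100 kb, where the gene has ended, it was 342, 265 and 296 against 480, 464 and 513 (0.69, adjusted p = 0.0319). In all 3 bins every dTAG+I-BET library was above every DMSO library, and the dTAG libraries overlapped with DMSO. At 40 to 50 kb, with exon 3, signal was 687, 707 and 728 in DMSO, 920, 962 and 731 in dTAG, and 970, 1084 and 1082 in dTAG+I-BET, a rise of 0.56 on the log2 scale (adjusted p = 0.034). Between them, the bin at 50 to 60 kb had a log2 ratio of 0.48 and did not pass (adjusted p = 0.167), although all its dTAG+I-BET libraries were above those of DMSO.

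**Figure D4:**
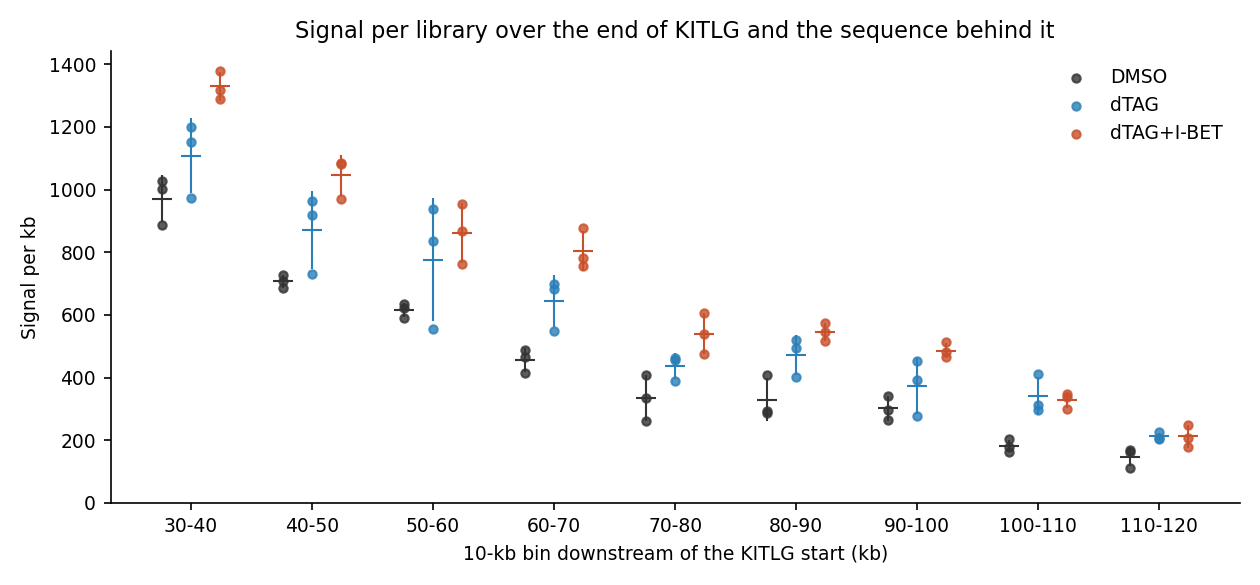
Signal per kb in each library (points) for the bins from 30 to 120 kb downstream, with group means and SD (lines, n = 3). At 60 to 70 kb the DMSO libraries sit at 413 to 488, the dTAG libraries at 548 to 700 and the dTAG+I-BET libraries at 754 to 876.

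The number of calls moved when libraries were left out. Without 1 library at a time, 1 to 9 KITLG bins were called in dTAG+I-BET: 9 when dTAG replicate 3 was left out, 1 and 2 when DMSO replicate 1 or 2 was, and 1, 1 and 2 when dTAG+I-BET replicate 1, 2 or 3 was.

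Setting dTAG+I-BET beside dTAG isolates the added inhibitor. No bin was called at KITLG or at any of the 20 promoters (0% of 1960; 122 bins at an unadjusted p under 0.05, of which 9 at KITLG, and and 0 adjusted calls at KITLG by edgeR or DESeq2). The highest fitted values lay upstream, 0.52 at 190 to 200 kb, 0.44 at 30 to 40 kb and 0.43 at 220 to 230 kb, and the lowest downstream, -0.45 at 260 to 270 kb and at 140 to 150 kb and -0.44 at 360 to 370 kb. The adjusted p of each was 0.712. Upstream 42 of 49 bins had a fitted ratio above 0 (median 0.19), which was 31 of 49 (median 0.07) without dTAG replicate 3. Over all promoters 1287 of 1960 bins were above 0 (median 0.09), and the upstream bands at 10 to 50 and 50 to 100 kb were above 0 in 20 of 20 promoters. All promoters share the same libraries, dTAG replicate 3 among them, so these counts are not independent.

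Wider bands of distance were tested to place the change by side. From 50 to 100 kb downstream the signal per kb was 390, 384 and 447 in DMSO, 576, 611 and 434 in dTAG, and 598, 681 and 663 in dTAG+I-BET. It rose in dTAG+I-BET (log2 ratio 0.67, SE 0.13, adjusted p = 0.0125), and this was the only KITLG band called, against 10.0% of 160 bands over all promoters. The call was lost without DMSO replicate 1 or 2 or without dTAG+I-BET replicate 2 or 3, where the adjusted p was up to 0.0842. In dTAG the ratio was 0.39 (SE 0.13, adjusted p = 0.135), and no band was called (5.62% over all promoters). Without dTAG replicate 3, the downstream bands at 10 to 50, 50 to 100 and 100 to 250 kb passed in dTAG, at 0.25, 0.55 and 0.30. The same 3 passed then in dTAG+I-BET, at 0.38, 0.67 and 0.28. No band was called between dTAG+I-BET and dTAG (0% of 160).

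The 4 upstream bands were not called in any comparison. Their log2 ratios of dTAG to DMSO were -0.22, -0.20, -0.18 and -0.07 from the nearest band to the farthest, and 0.01, -0.02, -0.0003 and -0.0065 without dTAG replicate 3. In dTAG+I-BET they were 0.09, -0.04, -0.01 and 0.08. The upstream values of dTAG were similar at the other promoters. In the same order of bands, 0, 1, 0 and 3 of 20 promoters were above 0, with medians of -0.19, -0.19, -0.18 and -0.10. The 20 promoters were measured in the same libraries, so counts of promoters are not independent. These counts and medians include dTAG replicate 3. Over the 20 promoters the downstream 50 to 100 kb band was above 0 in 17 for dTAG+I-BET against DMSO, with 4 called and a median of 0.23. The KITLG value was above those of 16 of the other 19, as a description.

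**Figure D5:**
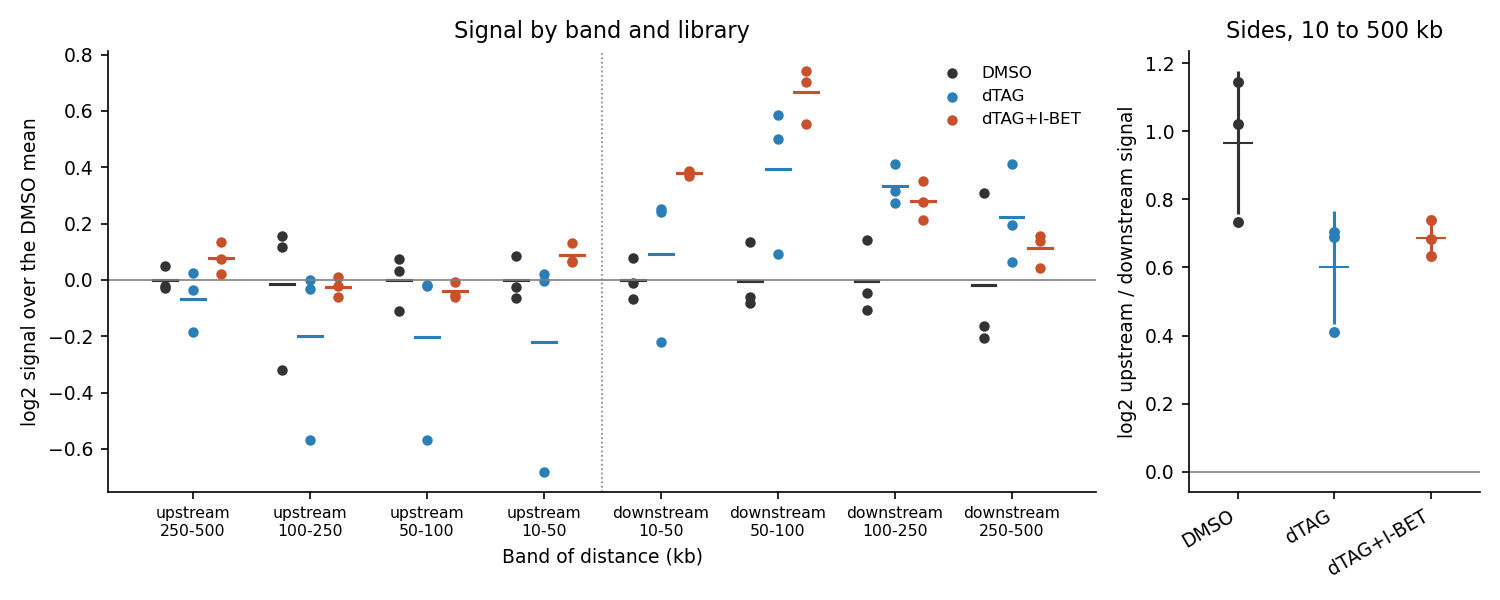
Left, log2 of signal per kb over the DMSO mean in 8 bands of distance, with each library as a point and group means as lines; right, log2 of upstream over downstream signal per library with mean and SD (n = 3). The dTAG+I-BET points at 50 to 100 kb downstream lie above all DMSO points, and 1 dTAG library lies below all others in the 3 upstream bands within 250 kb.

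The gene itself was measured from 10 kb downstream of the promoter to its end (chr12:88492793-88570850, 171 fragments). Signal per kb was 868, 914 and 881 in DMSO, 1103, 1120 and 807 in dTAG, and 1185, 1242 and 1217 in dTAG+I-BET. It rose in dTAG+I-BET by 1.37-fold (log2 ratio 0.45, SE 0.16, 95% interval 0.13 to 0.78, adjusted p = 0.0219 over the 10 genes longer than 30 kb, of which 50% were called). The call was lost when any DMSO or dTAG+I-BET library was left out (log2 ratio 0.44 to 0.47, adjusted p = 0.0524 to 0.086), and with edgeR the log2 ratio was 0.16 and passed. In dTAG, replicate 3 lay below the DMSO libraries and the others above, and the ratio was 0.17 (SE 0.16, adjusted p = 0.585; 10.0% of genes called). Without dTAG replicate 3 it was 0.33 (adjusted p = 5.29e-05). For gene bodies limma pooled the spread over the 10 genes, which were measured in the same libraries. A deviation of a library shared by several genes was thus counted as independent, and the gene body p-values may be too small. Between dTAG+I-BET and dTAG the gene body ratio was 0.28 (adjusted p = 0.303, 0% called).

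The balance of sides does not depend on how a library was scaled. The log2 of upstream over downstream signal from 10 to 500 kb was 1.15, 1.02 and 0.73 in DMSO, 0.70, 0.69 and 0.41 in dTAG, and 0.68, 0.63 and 0.74 in dTAG+I-BET. Upstream signal was thus 1.95 times the downstream signal in DMSO, 1.52 times in dTAG and 1.61 times in dTAG+I-BET. All dTAG libraries were below all DMSO libraries (log2 difference -0.37, SE 0.11, adjusted p = 0.0224; exact two-sided permutation test p = 0.1, which is the lowest possible with 3 libraries in each group). This was called in 50% of the 20 promoters, and 19 of 20 had a fitted value below 0 (median -0.18), all measured in the same libraries. The call was lost in fits that left out dTAG replicate 3 (-0.27, adjusted p = 0.0729) or, of the DMSO libraries, replicate 1 (-0.28) or replicate 2 (-0.34). For dTAG+I-BET it was -0.28 (adjusted p = 0.06; 50% of promoters called; exact permutation p = 0.2), and the groups overlapped. Between dTAG+I-BET and dTAG it was 0.08 (95% interval -0.17 to 0.34, adjusted p = 0.661; 0% called).

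Within 500 kb, 2 sites are listed by the study as having less of the cohesin subunit SMC1A after Mediator depletion, and 0 as having more. These sites come from a separate CUT&Tag assay. One lies 281.9 kb downstream (window chr12:88293775-88304175) and the other 353.7 kb upstream, in the plateau (window chr12:88929329-88939729). The downstream window had a signal per kb of 176, 184 and 208 in DMSO, 184, 189 and 329 in dTAG, and 210, 177 and 213 in dTAG+I-BET. The groups overlapped, and the log2 ratio in dTAG, 0.26 (adjusted p = 0.382), became -0.01 without dTAG replicate 3. The upstream window had 871, 841 and 828 in DMSO, 909, 822 and 979 in dTAG, and 956, 959 and 1018 in dTAG+I-BET. The dTAG+I-BET libraries were above all DMSO libraries, but the difference did not pass (0.21, SE 0.13, 95% interval -0.06 to 0.48, adjusted p = 0.276), nor did that of dTAG (0.09, 95% interval -0.18 to 0.36). Over all promoters 8.85% of 113 such windows were called in dTAG, all lower, 13.3% in dTAG+I-BET, 12 lower and 3 higher, and 0% between dTAG+I-BET and dTAG. Neither KITLG window was called.

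The shared promoter region of CEP290 and TMTC3, the only other protein-coding starts in reach, covers 28 fragments. Its signal per kb was 276, 333 and 539 in DMSO, 569, 509 and 579 in dTAG, and 394, 495 and 415 in dTAG+I-BET. DMSO replicate 3 was well above the other DMSO libraries and overlapped with dTAG. Without it the ratio of dTAG to DMSO was 0.86 and passed (adjusted p = 0.0466). With all libraries the log2 ratio was 0.59 in dTAG (SE 0.23, adjusted p = 0.267) and 0.24 in dTAG+I-BET (adjusted p = 0.683), and between dTAG+I-BET and dTAG it was -0.35 (adjusted p = 0.78). Of 174 promoters of other genes near the 20 viewpoints, 1.15%, 0.575% and 0.575% were called in these comparisons.

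The DMSO profile over the 98 bins was most like those of DDIT4 (Pearson r of log2 signal 0.84), KRT80 (0.64) and ERRFI1 (0.64), and least like that of PHLDA1 (-0.20). These correlations describe 1 mean profile per promoter and share the fall of signal with distance. Among the captured genes of growth factor and receptor signaling, KITLG had the most bins called in dTAG+I-BET against DMSO, 6 of 98. The share over all promoters was 4.90% of 1960 bins, and the ranking was made only among the genes named here. With 1 library left out at a time, the KITLG count ran from 1 to 9. ANGPT2, which encodes a ligand of the receptor TIE2, had 2. EREG, which encodes epiregulin, and SPRY4, which encodes a feedback inhibitor, had 0. ERRFI1, an inhibitor of the EGF receptor, had 1 lower bin and IRS1, an adaptor of insulin signaling, 2 lower bins. In dTAG, KITLG had 1 higher bin, ERRFI1 had 1 lower bin, and the other 4 had 0; the difference between promoters was not tested.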

How the data were processed

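Capture-C tables of 20 promoters in 9 libraries were used. The authors counted interactions per DpnII fragment with CapCruncher on hg38 and scaled them, so the deposited values are a signal with about the same total on the chromosome of the viewpoint (951148 to 956912 for KITLG). Per the labels, reads were converted with bcl2fastq 2.17. All KITLG values (100%, within a tolerance of 0.01) were whole-number multiples of their column's smallest value, which gave the number of interactions. PCR duplicates left by the authors' filters would enter these numbers. The column names mark replicates as TR, an abbreviation that no source used here explains; n = 3 rests on the paper's statement that replicates were biologically independent, and otherwise the p-values measure a spread that may be technical.

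Fragments were assigned to regions by their midpoint. log2(signal per kb + 1) of all 9 libraries was tested with limma 3.58.1 in R 4.3.3, with Benjamini-Hochberg adjustment over the regions of all 20 promoters and a threshold of 0.05; log2 ratios are on this scale. Regions were 10-kb bins, bands, the gene, sites of reduced SMC1A from the study's supplementary list with 5 kb added on each side, and promoters of other genes (GENCODE 44). edgeR 4.0.16 and DESeq2 1.42.0 on recovered interactions, rescaling from 10 to 1000 kb, other pseudocounts (0.5 and 5), bin sizes (5 and 25 kb), window widths (2.5 and 10 kb), a filter of 10 per kb, fits of only the 2 groups compared, a replicate block and leaving out each library were alternatives. Unlike limma, edgeR and DESeq2 scaled each library again by its signal in the tested regions. A shift shared by most of those regions is then reduced in their ratios. On simulated counts for the 1960 bins, limma found 91 of 100 bins changed by 1 on the log2 scale and 40 of 100 changed by 0.5, with 9 of 1760 unchanged bins called. The simulated bins were drawn independently with 1 common spread. They held no shift shared across the bins of a library, and no library that stood apart, so that these rates may not hold for the measured libraries. Named bins were those called, the 3 highest and 3 lowest of each comparison, the 5 highest in DMSO relative to other promoters, and those with a named site; that at 50 to 60 kb downstream and the other bins given for the DMSO profile and the plateau were added after their values were seen. The members and lists were chosen with earlier results of these data known. Sequences were read from the hg38 genome given with GENCODE; that of the bin at 100 to 110 kb downstream is not reported here. Figures were drawn with matplotlib 3.10.9.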

Additional observations from a re-analysis of the deposited data

How the results depend on the processing

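Depth limits the single bins: 14 to 1315 interactions stand behind a bin in a library, and these counts cover counting error only. With 1 library left out at a time, the number of KITLG bins called was 0 to 5 for dTAG and 1 to 9 for dTAG+I-BET against DMSO, that of bands 0 to 3 and 0 to 3, and that of promoters of other genes 0 to 2 for dTAG. The dTAG bin was lost without DMSO replicate 1, while leaving out DMSO replicate 3 gave 4 and leaving out dTAG replicate 3 gave 5. For dTAG the number of bins called was 5 after rescaling (4 higher and 1 lower), 8 with edgeR, 4 with DESeq2 and 3 with the replicate block, against 1. For dTAG+I-BET it was 8 after rescaling, 9 with edgeR, 9 with DESeq2 and 9 with only the 2 groups compared, against 6, and the 6 bins were among those called in each of these. The number of bands called for dTAG was 2 after rescaling and 1 with edgeR, against 0. For dTAG+I-BET it was 2 after rescaling, 2 with edgeR, 2 with the replicate block and 3 with only the 2 groups compared, against 1. edgeR called 1 site of reduced cohesin for dTAG+I-BET and 2 promoters of other genes for dTAG, against 0. These 2 promoters, and the 2 called with 1 library left out, are those of CEP290 and TMTC3. Their windows hold the same 28 fragments and are 1 region counted for 2 genes. With 1 library left out, the gene body ratio was 0.0887 to 0.33 for dTAG, where it passed without dTAG replicate 3 (0.33), and 0.44 to 0.47 for dTAG+I-BET; with edgeR it was 0.08 and 0.16, and after rescaling 0.19 and 0.36. The log2 difference of sides ran from -0.48 to -0.27 for dTAG, from -0.40 to -0.19 for dTAG+I-BET and from -0.01 to 0.14 between dTAG+I-BET and dTAG (-0.0109 without dTAG replicate 3) when 1 library was left out. It was -0.37 for dTAG with only the 2 groups compared (adjusted p = 0.0664). For dTAG+I-BET it passed with DMSO replicate 3 left out (-0.40), with dTAG replicate 3 left out (-0.28) and with the replicate block (-0.28, adjusted p = 0.0333). The cause of these changes was not tested.

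Same-numbered libraries deviated together with an r of -0.064 to 0.233 in 9 pairs, 2 of them over 0.1, so the numbers were not taken to pair the samples; beyond the counts above, the replicate block changed no call of the gene body (0.17, 0.45 and 0.28 in the 3 comparisons), of the sites of reduced cohesin or of the promoters (0 in each).

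Some ratios that did not pass changed sign. Without dTAG replicate 3 these were, for dTAG, the upstream band at 10 to 50 kb (0.0104; lowest -0.34 without another library) and the downstream site of reduced cohesin (-0.0145; highest 0.40), and, between dTAG+I-BET and dTAG, the upstream bands at 50 to 100 kb (-0.0202; highest 0.254) and 100 to 250 kb (-0.0084; highest 0.28), that site (0.0923; lowest -0.32) and the bin at 100 to 110 kb (0.0984; 0.0208 without dTAG+I-BET replicate 3; lowest -0.14). After rescaling, for dTAG+I-BET, they were the upstream bands at 10 to 50 kb (-0.0081) and 250 to 500 kb (-0.0188) and the downstream site (-0.0177). With edgeR the upstream band at 250 to 500 kb was 0.0173 for dTAG. For dTAG+I-BET the upstream band at 100 to 250 kb ran from -0.16 to 0.0773 when 1 library was left out (0.0773 and 0.0573 without DMSO replicate 1 or 2, 0.0098 without dTAG+I-BET replicate 2), and that at 50 to 100 kb from -0.0926 to 0.0004 (DMSO replicate 1 left out). Of 842 values of 54 single results under the alternatives, 766 kept their direction and their side of the threshold.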
